A study of Homo sapiens with 6 samples.

Results

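The replication-dependent histone genes were examined in 6 RNA-Seq libraries of DMS53, an established line of small cell lung cancer (SCLC) that has neuroendocrine (NE) features. They were taken by gene symbol as the H1-1 to H1-6 genes and all genes of the H2AC, H2BC, H3C and H4C families. This gave 69 of the 62696 genes counted: 6 of class H1, 17 of H2A, 18 of H2B, 13 of H3 and 15 of H4. The control group held 3 libraries from cells transduced with the empty lentiviral vector pLenti-C-mGFP-P2A-Puro. The OC2-OE group held 3 libraries from cells transduced with an mGFP-tagged ONECUT2 open reading frame in a lentiviral vector. Both groups carried a vector, were grown in the same medium and were selected with puromycin, so the comparison asks which histone transcripts differ when OC2 is constitutively expressed. The study describes the libraries of a condition as independent experiments, and selected pools of a single line were used. It does not say whether the libraries of a group came from separate transductions. Between libraries of a group, the variance of the counts was 1.32 to 2.07 times that of sampling alone. The p-values below measure this spread, and other differences between the transduced pools cannot be told apart from OC2.

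Core histones (H2A, H2B, H3 and H4) wrap DNA into nucleosomes, and H1 linker histones bind where DNA enters and leaves them. The replication-dependent genes lie in clusters, are transcribed mainly in S phase, and make short mRNAs that end in a conserved stem-loop bound by SLBP in place of a poly(A) tail. Some of them also give polyadenylated transcripts, which are read from downstream polyadenylation sites and can be spliced. The libraries were made from poly(A)-selected RNA, so the values below describe polyadenylated histone transcripts, and the stem-loop-ended mRNAs are largely outside the measurement. In bulk RNA, fewer cells making a transcript and less of it per cell cannot be told apart.

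The stem-loop is shown because it marks where the usual histone mRNA ends. A 16-base hairpin with a perfect 6-base-pair stem and a 4-base loop was sought within 100 bases after the stop codon, in transcripts of GENCODE release 29. Only hairpins whose first arm begins with GG and ends with T, and whose loop begins with T, were accepted. These bases are therefore shared by all hairpins through the search, and hairpins of other sequence were not counted in any gene. Such a hairpin was read for 28 of the 65 members with a transcript there. Many of the other models end at or soon after the stop codon, and only 33 members had 16 or more annotated bases after it. Where a full 100 bases were annotated, the hairpin was read in 25 of 27 members and in 9 of 53025 transcripts of other protein-coding genes (0.017%). The 28 hairpins had 5 different sequences, given here beside members that carry them, with the stem arms in capitals and the loop in lower case.
H2AC6, H2AC25, H2BC6, H2BC15, H2BC21, H2BC26: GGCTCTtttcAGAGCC
H2BC4, H2BC5: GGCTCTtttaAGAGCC
H3C6: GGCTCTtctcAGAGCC
H4C8, H4C16: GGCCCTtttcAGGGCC
H4C9, H4C14, H4C15: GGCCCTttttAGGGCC
The first of these was the most common, in 15 members of classes H2A, H2B and H3. The arms with CCC and GGG in the middle were read only in H4 genes, and the loop of H3C6 was read in no other member. The hairpin of H3C6 lies at chr6:26225596-26225611 (GRCh38, plus strand), 30 bases after the stop codon, and the gene annotated in the count files runs on for 1862 bases beyond it. The hairpin of H2BC5 lies at chr6:26158587-26158602 (plus strand), with 12747 bases of annotated gene beyond it, introns included. That of H2BC6 lies at chr6:26184210-26184225 (plus strand), with 430 bases beyond it. That of H4C8 lies at chr6:26285131-26285146 (minus strand), with 7522 bases beyond it. The counts cover a whole gene, so reads before and after the hairpin were not separated.

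The libraries held 16533284 to 19099337 counts. ONECUT2 was measured at 24.8, 24.6 and 24.2 CPM in control and at 3857, 3967 and 3987 CPM in OC2-OE, where CPM is the count scaled to a common library size by TMM. The labels and the counts of ONECUT2 thus point the same way in all 6 libraries (log2 fold change 7.32, SE 0.0281, adjusted p = 1.45e-158 by the quasi-likelihood test of edgeR, adjusted over 17307 genes by Benjamini-Hochberg as all adjusted p-values below). The counts do not separate the introduced copy from the cells' own ONECUT2. Markers of an NE epithelial line were all present, with control means of 335 CPM for SYP, 72.1 for CHGA, 164 for NCAM1, 328 for INSM1 and 729 for EPCAM. They differed with the group, with OC2-OE means of 246, 150, 41.1, 86.4 and 924 CPM in that order, and all 5 were called. Of the markers of other cells, PTPRC had 3 counts in the 6 libraries together, COL3A1 had 8, PECAM1 had 259 and COL1A1 had 2641, the last with a log2 fold change of 0.37 (adjusted p = 7.10e-07). The part of these shifts in the values of the histone genes was not tested. A gene was called changed at an adjusted p under 0.001, which 56.5% of tested genes reached, 27.8% higher and 28.7% lower in OC2-OE.

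Most of the histone genes gave few reads. The 69 genes together had 4660 counts over the 6 libraries, and their summed level was 40.6 ± 0.990 CPM (SD, n = 3) in control and 46.7 ± 1.20 CPM (SD, n = 3) in OC2-OE. For comparison, the replacement histone gene H3-3B alone was at 461 ± 8.32 CPM in control (SD, n = 3). Of the 69, 14 had no counted read in any library. Another 42 had some reads but fell below edgeR's expression filter with at most 55 counts in all, and 13 passed it. Reads that map to several places or overlap several genes were not counted. Some of the 14 share their sequence with other genes or overlap another gene on the same strand, so a count of 0 need not mean no transcript. The filter asks for about 0.572 CPM in 3 libraries. H3C6 and H2BC6 reached that level in no control library and passed through the OC2-OE libraries alone, and 9 of the 13 reached it in all 6 libraries.

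Of the 13 tested members, 3 rose in OC2-OE: H3C6, H2BC5 and, less firmly, H2BC6. H2BC6 kept its call in 2 of 12 alternatives, both of them other scalings, while H3C6 and H2BC5 kept theirs in each alternative in which they were tested. H3C6 and H2BC6 entered the test only through the group in which they are high, so the number of calls among the 13 is a description and stands beside 27.8% of all genes called higher. No member was called lower, where 28.7% of all genes were. With an unadjusted p under 0.05 in edgeR's test, 1 member was lower (36.7% of all genes were), and limma voom and DESeq2's Wald test also called 0 lower. Of the 13, 7 had all OC2-OE libraries above all control libraries and 1 had them all below, while 73.2% of all tested genes had groups that did not overlap. At an adjusted p under 0.05, 7 members were higher and 1 lower, beside 35.6% and 35.7% of all genes. Log2 fold changes ran from -0.27 to 2.50, and standard errors ran from 0.113 to 0.422. The median absolute log2 fold change over all tested genes was 0.38. With few counts and such errors, a fall of that size in a member could go uncalled, so the absence of lower calls is a description.

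**Figure D1:**
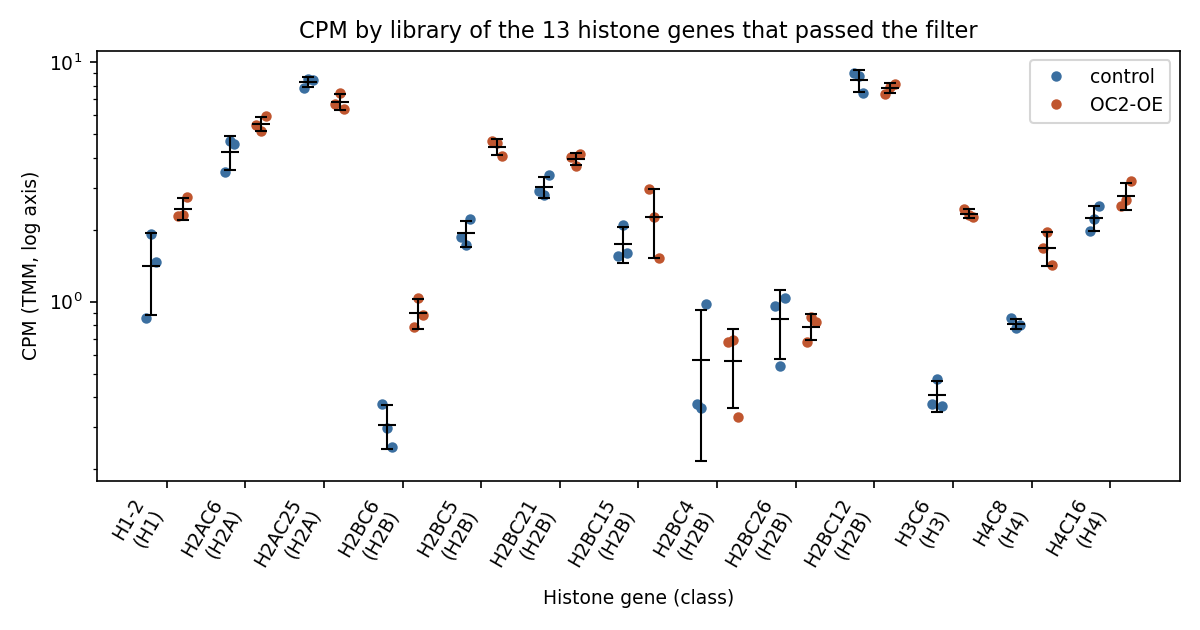
CPM on a log axis for each of the 13 histone genes that passed the filter, ordered by class. Points are libraries, blue for control and orange for OC2-OE, and the black marks are the mean and SD of 3 libraries; H3C6, H2BC6, H2BC5 and H4C8 show the widest separation between the groups.

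H3C6 encodes the core histone H3 (ENSG00000274750.3, chr6:26224199-26227473, plus strand, 2 exon blocks and 2679 exonic bases). It had 7, 8 and 6 counts in control and 47, 40 and 41 in OC2-OE. On the CPM scale these were 0.374, 0.477 and 0.368, and 2.45, 2.30 and 2.25. The OC2-OE libraries lay close together and well above every control library. The log2 fold change was 2.50 (SE 0.321, adjusted p = 9.66e-12), a 5.67-fold rise, and the gene was called whichever library was left out (adjusted p from 1.05e-10 to 3.77e-09). H3C6 was the only H3 gene that passed the filter. The other 12 members of class H3 summed to 1.32 ± 0.341 CPM in control and 1.13 ± 0.0309 CPM in OC2-OE (SD, n = 3), and their groups overlapped.

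Class H2B gave the most tested members, 7 of 18. H2BC5 (ENSG00000158373.9, chr6:26158122-26171349, plus strand, 861 exonic bases in 2 blocks) is a core H2B gene known to give polyadenylated transcripts. It was at 1.87, 1.73 and 2.21 CPM in control and 4.69, 4.61 and 4.05 CPM in OC2-OE. All OC2-OE values were above all control values. The log2 fold change was 1.20 (SE 0.186, adjusted p = 6.91e-09), a 2.30-fold rise, called without any of the 6 libraries in turn (adjusted p from 5.20e-08 to 1.26e-06).

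H2BC6 (ENSG00000274290.3, chr6:26172059-26184655, plus strand) also encodes H2B, and its annotated model holds 2585 exonic bases in 4 blocks. It had 7, 5 and 4 counts in control and 15, 18 and 16 in OC2-OE. These were 0.374, 0.298 and 0.246 CPM against 0.781, 1.04 and 0.877 CPM. The groups did not overlap, but the counts were few. The log2 fold change was 1.51 (SE 0.422, adjusted p = 0.000886). The call was lost whichever library was left out: the adjusted p was 0.00206, 0.00565 and 0.00782 without control replicates 1, 2 and 3 and 0.00185, 0.00818 and 0.00337 without OC2-OE replicates 1, 2 and 3. DESeq2 gave 0.0116 and limma voom 0.00111.

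The other H2B genes were not called. H2BC12 (ENSG00000197903.8, chr6:27146361-27146855, minus strand) had the most counts of all members, 864, on a short gene model of 495 bases. It was at 9.03, 8.77 and 7.43 CPM in control and 7.40, 7.89 and 8.11 CPM in OC2-OE, and the groups overlapped. Its log2 fold change was -0.11 (SE 0.113, adjusted p = 0.367). In release 29, 25.9% of its 50-base stretches occurred in no other gene's transcripts, and reads that mapped to several places were not counted, so its level is uncertain. H2BC21 (ENSG00000184678.11, chr1:149884459-149886682, minus strand) was at 2.89, 2.80 and 3.38 CPM in control and 4.01, 3.69 and 4.16 CPM in OC2-OE. Its groups did not overlap, with a log2 fold change of 0.39 (SE 0.171, adjusted p = 0.0342). H2BC15 (chr6:27838545-27855709, plus strand) had 29, 35 and 26 counts in control and 57, 39 and 28 in OC2-OE. OC2-OE replicate 1 stood highest of all 6, the groups overlapped, and the log2 fold change was 0.38 (SE 0.234, adjusted p = 0.142). It was 0.12 without OC2-OE replicate 1 and 0.60 without OC2-OE replicate 3 (adjusted p = 0.709 and 0.0310). H2BC26 (chr1:228458103-228463104, plus strand), whose exons overlap those of MIR4666A on the same strand, was at 0.962, 0.537 and 1.04 CPM in control and 0.677, 0.864 and 0.822 CPM in OC2-OE. Its groups overlapped (log2 fold change -0.11, SE 0.348, adjusted p = 0.782). H2BC4 (chr6:26114873-26123926, minus strand) had 60 counts in all, and its log2 fold change of 0.01 had an SE of 0.419 (adjusted p = 0.983), an error about as large as that of H2BC6.

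Both tested H2A genes have several exon blocks in the annotation. H2AC6 (ENSG00000180573.10, chr6:26124145-26139116, plus strand) was at 3.47, 4.71 and 4.54 CPM in control and 5.47, 5.19 and 5.97 CPM in OC2-OE. The OC2-OE libraries were all higher, with a log2 fold change of 0.39 (SE 0.147, adjusted p = 0.0128), or 0.26 without control replicate 1 (adjusted p = 0.140). H2AC25 (ENSG00000181218.6, chr1:228434777-228457873, minus strand) was at 7.80, 8.53 and 8.47 CPM in control and 6.67, 7.43 and 6.41 CPM in OC2-OE. It was the tested member whose OC2-OE libraries all lay below the control libraries. Its log2 fold change was -0.27 (SE 0.117, adjusted p = 0.0303), and neither H2A gene was called.

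H4C8 (ENSG00000158406.6, chr6:26277609-26285638, minus strand, 3 exon blocks) encodes H4. It was at 0.855, 0.776 and 0.798 CPM in control and 1.67, 1.96 and 1.42 CPM in OC2-OE. The groups did not overlap and the log2 fold change was 1.04 (SE 0.296), with an adjusted p of 0.00105, just over the threshold. With library-size scaling, or with a filter of at least 10 counts in every library, it was called (adjusted p = 0.000618 and 0.000397), and over all its alternatives the adjusted p ran from 0.000397 to 0.0117. H4C16 (ENSG00000197837.4, chr12:14767999-14771131, minus strand), the only member on chromosome 12, was at 1.98, 2.21 and 2.52 CPM in control and 2.50, 2.65 and 3.18 CPM in OC2-OE. Its groups overlapped slightly (log2 fold change 0.32, SE 0.205, adjusted p = 0.157).

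H1-2 (ENSG00000187837.4, chr6:26055740-26056470, minus strand, a single block of 731 bases) was the only linker histone of the family that passed the filter. It was at 0.855, 1.91 and 1.47 CPM in control and 2.29, 2.30 and 2.74 CPM in OC2-OE. Control replicate 1 was the lowest library and control replicate 2 the highest of its group, and the groups did not overlap. The log2 fold change was 0.81 (SE 0.241, adjusted p = 0.00187). Without control replicate 2 it was 1.09 and called (adjusted p = 0.000457), and without control replicate 1 it was 0.53 (adjusted p = 0.0576). It was not called in the other 4 omissions of 1 library.

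**Figure D2:**
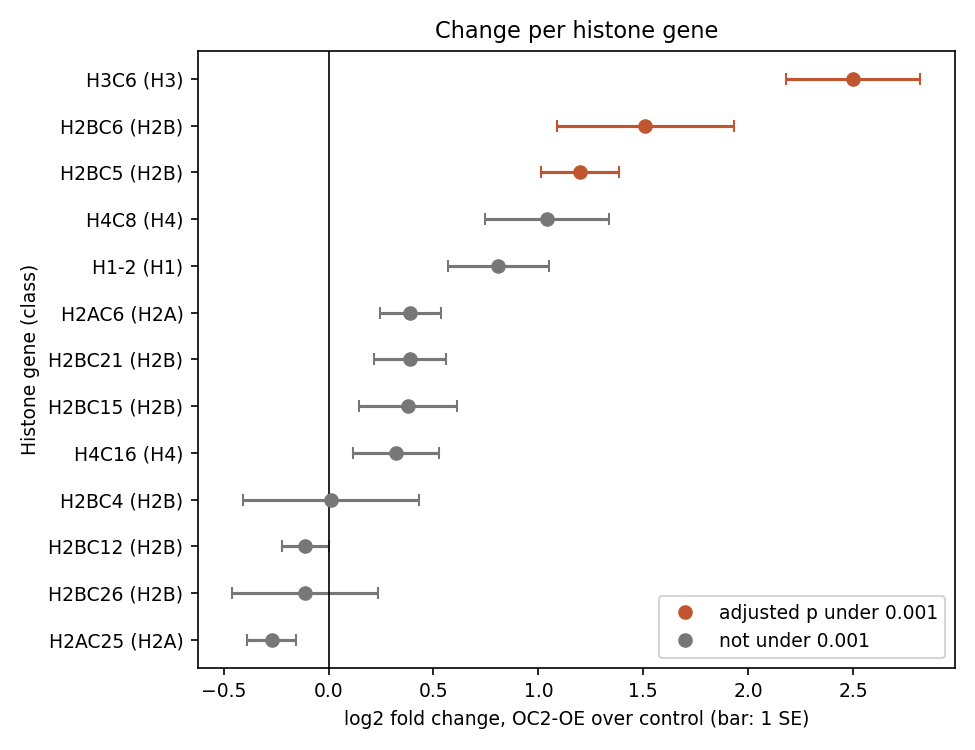
Log2 fold change, OC2-OE over control, of the 13 tested histone genes, with bars of 1 SE. Orange marks the 3 genes with an adjusted p under 0.001, H3C6, H2BC6 and H2BC5, and the remaining 10 run from -0.27 for H2AC25 to 1.04 for H4C8.

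Of the members known to give polyadenylated forms (H1-2, H2AC6, H2BC4, H2BC5, H2BC12 and H2BC21), all 6 passed the filter and H2BC5 alone, 1 of 6, was called, beside 27.8% of all genes called higher and 56.5% called in either direction. Their median log2 fold change was 0.39, beside 0.01 over all genes. Levels of different genes were compared as CPM per kb of annotated exon. On this scale H2BC12 stood highest among the tested members in both groups, at 15.8 ± 0.737 in OC2-OE (SD, n = 3). In control it was followed by H2AC25 at 4.47 ± 0.219, H2AC6 at 2.54 ± 0.403 and H2BC5 at 2.25 ± 0.287, and the levels of H2AC6 and H2BC5 lay within their spread of each other. In OC2-OE H2BC5 was next at 5.17 ± 0.401, and H2AC25 followed at 3.70 ± 0.287. H3C6 went from 0.152 ± 0.0229 to 0.871 ± 0.0388 on the same scale, so it stayed below most of the tested members in level. Its log2 fold change was nevertheless the largest among the tested members. H3C6 passed the filter only through the OC2-OE libraries, so this rank is a description.

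The annotated gene models fall into short and long ones. Here 51 members had a single exon block under 1000 bases, and 18 had a longer model or several blocks. This limit was chosen with the values in view and is a description only. Of the 18, 11 passed the filter, and of the 51, 2 did, H2BC12 and H1-2. The 18 longer models summed to 26.0 ± 1.57 CPM in control and 33.5 ± 0.943 CPM in OC2-OE, a log2 ratio of 0.36, with all OC2-OE libraries above all control libraries. The 51 short models summed to 14.6 ± 1.04 and 13.3 ± 0.255 CPM (SD, n = 3), a log2 ratio of -0.14, and their groups overlapped. Of the 51 short genes, 25 had more counts in control, 11 had more in OC2-OE, 3 had equal counts above 0 and 12 had no counted read. H2BC12 and H1-2 hold most of the 1486 counts of this set, and the other 49, with 416 counts, summed to 4.81 ± 0.332 CPM in control and 3.02 ± 0.788 CPM in OC2-OE (log2 ratio -0.67, groups not overlapping). No test was made of the sums.

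**Figure D3:**
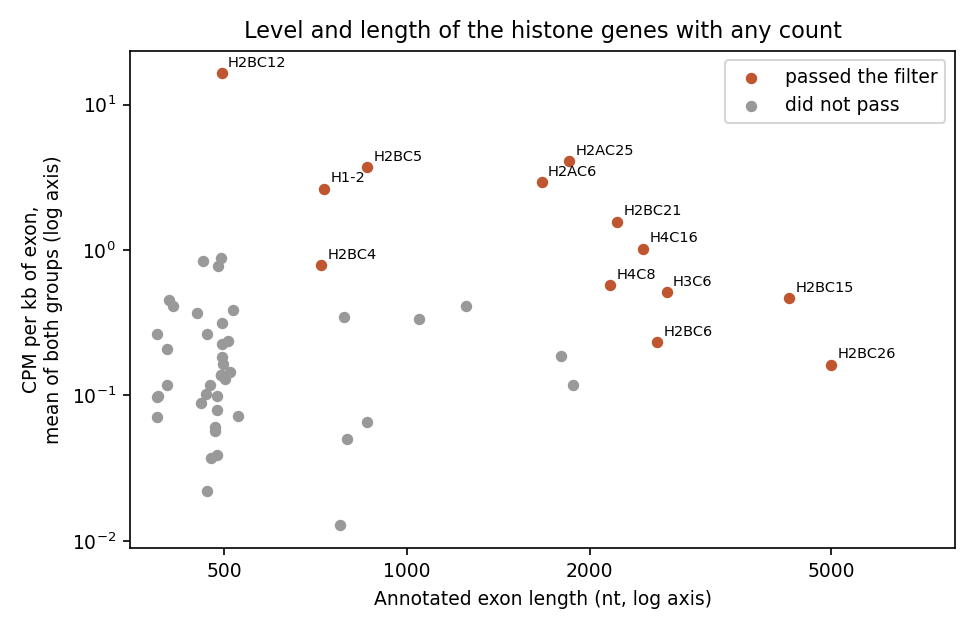
CPM per kb of annotated exon (mean of both groups, log axis) against annotated exon length in bases (log axis) for the 55 histone genes with any count. Orange points passed the filter and are named, grey points did not; most of the grey points are short genes, and H2BC12 is the highest point.

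Among the 42 members with reads that failed the filter, the 6 with the most counts are given, a choice made after their values were seen. H3C10 had 27 counts in control and 28 in OC2-OE, H2AC20 had 31 and 16, and H2BC8 had 19 and 22. H2BC9 had 29 and 11, H2BC11 had 28 and 9, and H2BC18 had 20 and 16. Of 65 members with such a value, 11 had under 50% unique stretches and 5 had 0%, and reads that mapped to several places were not counted for them. When every member with at least 1 count was fitted, 55 members entered, 2 were called higher (H3C6 and H2BC5) and 0 lower, and 5 were lower at an unadjusted p under 0.05. Of all 34511 genes in that fit, 28.3% were called in either direction and 14.3% lower, and 20.8% were lower at an unadjusted p under 0.05.

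Summed by class, H2B held the most reads, with 19.1 ± 0.503 CPM in control and 22.0 ± 0.947 CPM in OC2-OE. H2A held 14.1 ± 0.841 and 13.1 ± 0.0960 CPM, H4 held 3.83 ± 0.581 and 5.50 ± 0.383 CPM, H1 held 1.86 ± 0.666 and 2.64 ± 0.189 CPM, and H3 held 1.72 ± 0.320 and 3.46 ± 0.126 CPM (SD, n = 3 for each). The groups did not overlap for H2B, H3 and H4 and did overlap for H1 and H2A. The log2 ratios were 0.20 for H2B, -0.10 for H2A, 0.52 for H4, 0.51 for H1 and 1.01 for H3, and that of H3 came from H3C6. The ratio of H1 moved most when a library was left out, to 0.26 without control replicate 1 and to 0.78 without control replicate 2, and that of H2A was -0.06 without control replicate 2. Split by the expression filter, the 13 members that passed summed to 34.2 ± 1.59 CPM in control and 42.3 ± 0.506 CPM in OC2-OE. The 56 that failed summed to 6.40 ± 0.617 and 4.40 ± 0.772 CPM (SD, n = 3), a log2 ratio of -0.54 with no overlap, and by class the failed members had log2 ratios of -1.18 for H1, -1.03 for H2A, -0.87 for H2B, -0.22 for H3 and 0.41 for H4. The groups overlapped for the last 2 of these. The level in OC2-OE helps decide which members pass, as for H3C6 and H2BC6, so opposite signs of passed and failed members are partly built into this split and are no result. None of these sums was tested.

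**Figure D4:**
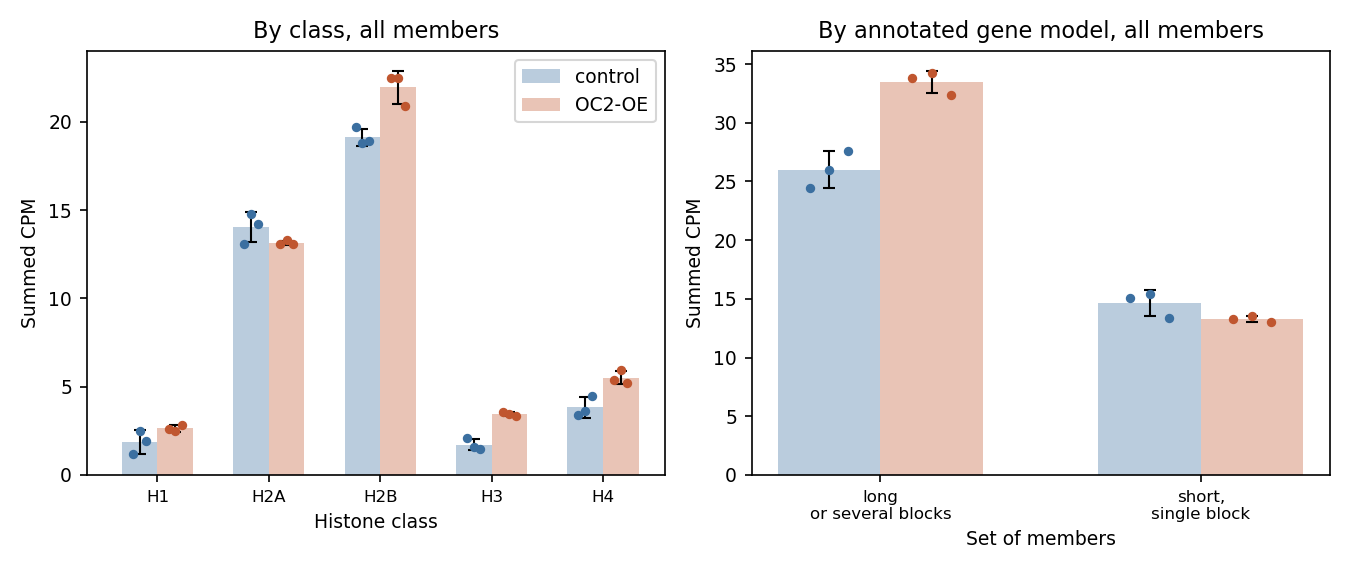
Summed CPM of all members of each class (left) and of the 18 members with a long or divided and the 51 with a short gene model (right), on axes that start at 0. Bars are means of 3 libraries with the SD, points are libraries, blue is control and orange is OC2-OE; the groups do not overlap for H2B, H3, H4 and the long models, and overlap for the others.

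By position, members less than 500 kb apart were grouped. The group at chr6:25723397-26285638 held 34 members, 7 of them tested. The 3 called genes lie here, which is a description, since H3C6 and H2BC6 passed the filter only through OC2-OE and 27.8% of all genes were called higher. Its summed level was 10.8, 13.2 and 13.3 CPM in control and 20.4, 20.4 and 18.9 CPM in OC2-OE. The OC2-OE libraries were all higher, and the log2 ratio of 0.67 was the largest of the 6 groups. The 16 members at chr6:27807479-27893891 summed to 3.40 ± 0.484 and 3.31 ± 0.942 CPM, and the 5 at chr6:27125897-27147562, mostly H2BC12, to 9.15 ± 0.805 and 7.98 ± 0.447 CPM, with overlap in both. On chromosome 1 the 11 members at chr1:149782689-149887965 went from 4.25 ± 0.339 to 5.14 ± 0.313 CPM. The neighbours H2AC25 and H2BC26 at chr1:228434777-228463104 together went from 9.12 ± 0.378 to 7.63 ± 0.584 CPM (SD, n = 3), and in neither chromosome 1 group did the libraries overlap.

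The promoters of the 3 called genes are shown, since OC2 is a DNA-binding factor. Each runs from 250 bases before to 50 after the RefSeq start (GRCh38.p14), on the strand of the gene, with CCAAT boxes (CCAAT or ATTGG), TATA boxes (TATAAA, gene strand only), the octamer ATTTGCAT (both strands) and the ONECUT core (ATCGAT or ATTGAT, both strands) in capitals. CCAAT boxes bind NF-Y and the octamer binds POU2F1, and a CCAAT box and a ONECUT core can share bases.
H3C6, chr6:26223928-26224227, plus strand: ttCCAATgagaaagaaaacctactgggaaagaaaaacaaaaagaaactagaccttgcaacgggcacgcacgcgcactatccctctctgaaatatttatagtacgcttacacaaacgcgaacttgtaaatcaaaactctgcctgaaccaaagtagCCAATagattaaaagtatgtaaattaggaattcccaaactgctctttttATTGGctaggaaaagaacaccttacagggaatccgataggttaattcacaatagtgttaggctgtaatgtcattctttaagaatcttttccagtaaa
H2BC5, chr6:26157871-26158170, plus strand: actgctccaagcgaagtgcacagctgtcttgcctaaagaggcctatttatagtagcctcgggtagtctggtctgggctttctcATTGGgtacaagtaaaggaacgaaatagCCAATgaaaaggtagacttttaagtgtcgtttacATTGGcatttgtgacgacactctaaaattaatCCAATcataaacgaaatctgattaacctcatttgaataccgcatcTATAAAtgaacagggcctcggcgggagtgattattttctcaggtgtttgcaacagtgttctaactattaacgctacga
H2BC6, chr6:26183511-26183810, plus strand: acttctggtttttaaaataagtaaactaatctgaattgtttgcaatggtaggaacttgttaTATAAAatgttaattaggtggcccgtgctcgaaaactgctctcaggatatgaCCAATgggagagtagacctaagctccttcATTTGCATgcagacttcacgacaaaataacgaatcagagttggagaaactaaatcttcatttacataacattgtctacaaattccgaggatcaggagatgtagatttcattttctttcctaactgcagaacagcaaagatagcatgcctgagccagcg
All 3 held CCAAT boxes, H2BC5 and H2BC6 the letters TATAAA, and H2BC6 the octamer. The letters were matched anywhere in the window, and in H2BC6 TATAAA lies in its upstream part, far from the RefSeq start. The letters of the ONECUT core were in none of these windows. Promoters were matched for 64 members. CCAAT was found in 84.4% of them, beside 34.6% of 35116 RefSeq promoters, and in 3 of 13 H4 promoters against all of those of the other classes. TATAAA was found in 57.8% beside 7.33%, and the octamer in 40.6% beside 1.77%, in 14 of 18 H2B and 11 of 16 H2A promoters. The ONECUT core was in 11 of 64 promoters (17.2%, beside 6.96% of all), and in none of the 13 tested members. Some neighbouring H2A and H2B genes on opposite strands, such as H2AC20 and H2BC21, start so close together that their windows share bases. A motif sought on both strands can then count for both genes, so these promoters are not all separate sequences. The annotated model of H2BC6 begins upstream of the RefSeq start, so this window need not hold the start of the transcripts counted.

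The replacement histone genes encode variants that lie outside the replication-dependent families, most of them with polyadenylated mRNAs, although H2AX also gives a stem-loop mRNA and CENPA is made mainly in G2. Of the 11 genes reported here 10 were tested, 8 fell (80.0%, beside 28.7% of all genes) and 2 were not called, and the median log2 fold change was -0.41 beside 0.01 over all genes. CENPA, the histone H3 form of centromeres, had 331, 301 and 299 counts in control and 53, 59 and 79 in OC2-OE (log2 fold change -2.37, SE 0.114, adjusted p = 9.70e-40). H2AX, which is phosphorylated at DNA breaks, fell by 1.04 on the log2 scale (SE 0.0378), and H2AZ1, which replaces H2A near promoters, fell by 0.84 (SE 0.0280). H3-3A fell by 0.29 (SE 0.0759, adjusted p = 0.000344) and H3-3B by 0.10 (SE 0.0225, adjusted p = 8.69e-05). The call of H3-3A was lost without control replicate 1 or 2 and without OC2-OE replicate 2 or 3 (adjusted p from 0.00127 to 0.00588). That of H3-3B was lost without control replicate 3 and without OC2-OE replicate 1 or 3 (adjusted p from 0.00105 to 0.00540), and both were lost with library-size scaling. That of H3-3A was also lost in DESeq2's Wald test.

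Genes that act on the histone genes and their mRNAs were also measured. Of 6 genes for histone gene transcription, 3 were called (beside 56.5% of all genes): POU2F1 (log2 fold change -0.40) and NPAT (-0.33), the cyclin E target that activates histone genes, fell and HINFP, which acts on H4 promoters, rose (0.21, SE 0.0589, adjusted p = 0.000953). The call of HINFP was lost whichever library was left out (adjusted p from 0.00158 to 0.00701), in DESeq2, in limma voom, without a filter and with the replicate block. Of 15 genes for 3′ end processing and decay, 7 fell, 2 rose and 6 were not called, with a median of -0.14. The 9 called of 15 are a share near the 56.5% of all genes. Of the 2 that rose, 1 lost its call in DESeq2, in limma voom and in 5 of 6 omissions of a library. In those omissions its adjusted p in edgeR's test ran from 0.00189 to 0.0238. Without OC2-OE replicate 1, 6 genes of this list were called. SLBP, which binds the stem-loops shown above, went from 155, 151 and 152 CPM to 104, 98.5 and 104 CPM (log2 fold change -0.58, SE 0.0332, adjusted p = 3.87e-33). CPSF3, the endonuclease that cuts the mRNA, fell by 0.51 on the log2 scale and the exonuclease gene ERI1 by 0.35, whose call was lost without OC2-OE replicate 3 (adjusted p = 0.00134).

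Of 20 histone chaperone genes, 11 fell (55.0%, beside 28.7% of all genes), 1 rose and 8 were not called, with a median of -0.30. The 12 of 20 called in either direction are a share near that of all genes. HJURP, the chaperone of CENPA, fell by 1.94 on the log2 scale (SE 0.0625), ASF1B by 1.50 (SE 0.0582) and CHAF1A, a subunit of CAF-1, by 0.81 (SE 0.0417). Of 15 genes of S phase entry and cycling, 14 fell (93.3%, beside 28.7% of all genes) and CCNE1 was not called, with a median of -0.98. MKI67, a marker of cycling cells, went from 456, 434 and 435 CPM to 89.2, 90.6 and 92.9 CPM (log2 fold change -2.28, SE 0.0284), CCNA2 fell by 2.25 (SE 0.0486) and RRM2 by 1.53 (SE 0.0346). The part of cell cycling in the values of the histone genes was not tested.

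**Figure D5:**
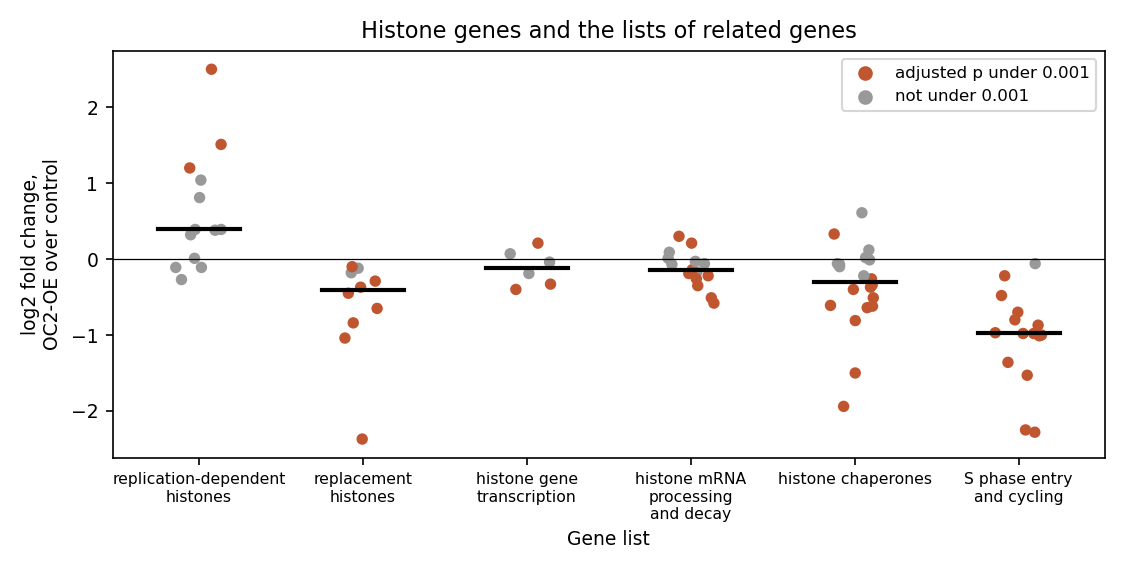
Log2 fold change, OC2-OE over control, of the tested genes of each list, with the list's median as a black bar. Orange points have an adjusted p under 0.001; the S phase and cycling genes have a median of -0.98, and the 3 called histone genes lie at 1.20 to 2.50.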

How the data were processed

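Poly(A) RNA of 6 DMS53 libraries was sequenced with a stranded kit. The processing notes name FastQC 0.11.8, STAR 2.7.9a, featureCounts 1.6.0, edgeR and limma. The deposited values are raw counts of read pairs per gene, made by the authors with featureCounts on the exons of GENCODE release 42 (GRCh38), per the file headers by strand and without reads that map to several places or overlap several genes. Depth is 16533284 to 19099337 counts, which limits genes with few counts.

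Symbols were matched for 62672 of 62696 genes. In R 4.3.3, counts were TMM-normalized, filtered with filterByExpr and tested with edgeR 4.0.16 (glmQLFTest, robust, no replicate term) on 17307 genes, with Benjamini-Hochberg adjustment and the study's threshold of 0.001. A fold change is OC2-OE over control. Alternatives were other scalings, DESeq2 1.42.0, limma 3.58.1 (voom), other filters and thresholds, a replicate block and each library left out. The steps were tested on simulated data. Every tested member may be named, per-library values are given for the 12 with the most counts and for the largest changes by class, and each other list gives the 3 genes with the largest called change and SLBP, NPAT, H3-3A and H3-3B. A gene of the replacement histone list is not reported here, and the counts and median of that list leave it out. Sums over members have no test. Stem-loops and unique 50-base stretches come from GENCODE release 29, promoters from RefSeq. The members and lists were chosen with earlier results of these data known.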

Additional observations from a re-analysis of the deposited data

How the results depend on the processing

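The call of H3C6 and H2BC5 held under every alternative in which they were tested, and no alternative called a member lower at 0.001. The number of members called higher, 3, ran from 2 to 4 over the other scalings, tests and filters and from 2 to 3 when 1 library was left out. At an adjusted p under 0.05, 7 members were higher and 1 lower, beside 35.6% and 35.7% of all genes. In edgeR's test without control replicate 1, H1-2, H2AC6 and H2BC21 were above 0.05 (adjusted p = 0.0576, 0.140 and 0.0938). H2AC25, the lower member, was above it without control replicate 2 or 3 and without OC2-OE replicate 1 or 3 (0.0708 to 0.121). Library-size scaling gave H2AC25 0.0792. In DESeq2's Wald test H2AC6, H2BC21 and H2AC25 were above 0.05 (0.0634, 0.111 and 0.100). With a minimum absolute log2 fold change of 1, the counts on the lists became 2 for replacement histones, 0 for histone gene transcription (edgeR's test, against 3 without the minimum), 0 for processing and decay (against 9), 2 for chaperones and 6 for S phase entry and cycling, where 17.3% of all genes passed. H2BC6 lost its call in DESeq2 (log2 fold change 1.54), limma voom (1.46), without a filter (1.52) and with each library left out (1.38 to 1.69). The direction of 2 uncalled members turned. H2BC26 was at 0.05 without control replicate 3 and at -0.35 without control replicate 2. H2BC4 was at -0.0029 in DESeq2, at -0.24 and -0.22 without control replicates 1 and 2 and at -0.14 without OC2-OE replicate 1 or 2, against 0.61 without control replicate 3. Replicate numbers did not pair the libraries (correlations of same-numbered libraries -0.00331, 0.0205 and 0.0146). With the replicate block, 2 members were called higher, and H2BC6 (log2 fold change 1.51) was lost at an adjusted p of 0.00139. Summed over only the members that passed the filter, the log2 ratio was 0.30 for H2B and 2.52 for H3, where H3C6 is then the sum. It was 0.79 for H1, where H1-2 is then the sum, against 0.51 over all members, and -0.02 for H2A against -0.10. Over members at 10 or more counts in each of the 6 libraries it was 0.29 for H2B, 0.79 for H1 and -0.02 for H2A. No H3 member reached that minimum. Class ratios moved by less than the SD between libraries under the other scalings, and that of H1 ran from 0.26 to 0.78 with 1 library left out. H2BC12, not called, ran from -0.20 to -0.06 with 1 library left out. Scaling by library size moved the median of all genes to 0.06. Members with under 60 counts were tested in the fit without a filter, and H3C10 also without control replicate 2 or 3. None of them was called, and in the fit without a filter 5 of the 55 members fitted were lower at an unadjusted p under 0.05, beside 20.8% of all genes.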
